A study of Homo sapiens with 36 samples.

Results

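The comparison covered 6 libraries of the human astrocytoma cell line SW1783, 3 from cells given 500 µg/mL of an extract of Aconitum carmichaeli Debeaux (ACD) and 3 from cells given 100 µg/mL. They were the high and medium dose groups of SW1783 in batch B, taken by their labels out of 36 libraries in the series, and every gene with counts entered the comparison. The question was what a 5-fold step in dose added, read without vehicle libraries. Both groups shared the cell line, the 24 h of exposure and the hot water extract of the root, which the labels call Aconiti Lateralis Radix Preparata. The series also held a low dose of 20 µg/mL, vehicle, wortmannin and the same arms in the colorectal adenocarcinoma line HT29, and their values appear only where a level or a difference at the dose step needed them. SW1783 is a single established tumour line, and nothing in the sources used here says that the 3 replicates of a dose came from separate cultures, so the p-values measure only the spread between these libraries.

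ACD, known as monkshood or aconite root, is a toxic medicinal plant whose best-known constituents are diterpenoid alkaloids that act on voltage-gated sodium channels, and a crude extract holds many other compounds. In the extract used here, the study listed aconitine as not detected, beside measured benzoylmesaconine and benzoylaconitine. Cells under chemical stress commonly switch on a shared set of pathways. In the integrated stress response, kinases phosphorylate the translation factor eIF2, general protein synthesis slows, and the transcription factor ATF4 raises genes for amino acid supply, for feedback and for cell death. In the unfolded protein response of the endoplasmic reticulum (ER), sensors such as IRE1 (ERN1) and ATF6 raise ER chaperones. NRF2, NF-kB, p53, HSF1 and SREBP are transcription factors for oxidative, inflammatory, DNA damage, heat shock and sterol responses.

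The 6 libraries held 18863863 to 24200576 counts, and 14997 to 15538 genes reached 10 counts in a library. A count of 0 allowed up to 3 counts, or 0.124 to 0.159 CPM, which are counts scaled to a common library size, and this limit covers counting error only. The chi-square statistic per degree of freedom, which is near 1 for sampling noise alone, was 2.09 to 2.76 between libraries of the same dose and 39.59 to 55.05 between doses, so no library was counted as a duplicate of another. Of 10 astrocyte markers, 5 had 3 counts or fewer in every library, with AQP4 and FABP7 at 0, and the summed level of the list was 178 to 181 CPM at the high and 224 to 237 CPM at the medium dose. The summed level of 7 mesenchymal markers was 9890 to 10000 CPM and 10000 to 10300 CPM, and all 6 epithelial markers had 3 counts or fewer. Nearly all of the astrocyte sum was GJA1, at a mean of 170 CPM at the high and 207 CPM at the medium dose. GFAP was at means of 0.0602 and 0.128 CPM. Apart from GJA1, the label of an astrocytoma was not matched by high levels of the astrocyte genes listed.

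At the higher dose, RNAs of inflammatory chemokines, stress regulators and lipid and haem metabolism were among the largest rises in SW1783, and RNAs of vitamin D breakdown, TGF-beta signalling and collagens were among the falls. Differentially expressed genes (DEGs) were called at an adjusted p-value under 0.05 and a change of more than 1.5-fold with the Wald test of DESeq2. Of 16279 genes tested, 1561 were DEGs, which is 9.59% of the genes tested. They were 744 higher (4.57%) and 817 lower (5.02%) at 500 µg/mL. Counts of DEGs in the gene lists below are to be read beside these shares. DEGs that changed more than 2-fold numbered 589 (274 higher and 315 lower), and more than 4-fold 66 higher and 41 lower. Protein-coding genes made up 1306 of the DEGs and long non-coding RNAs 160. The median log2 fold change over all genes tested was −0.004, and the median standard error (SE) was 0.076 among the 11220 genes with a mean of 100 or more normalized counts, that is, counts divided by the size factor of their library. Among these well-counted genes 990 were DEGs, and in 989 of them all 3 high dose libraries lay on one side of all 3 medium dose libraries. Over all genes tested the doses were apart in this way for 57.0%. The largest rises and falls described next were chosen among well-counted DEGs that were apart in this way. Their lack of overlap was therefore fixed by the choice.

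**Figure D1:**
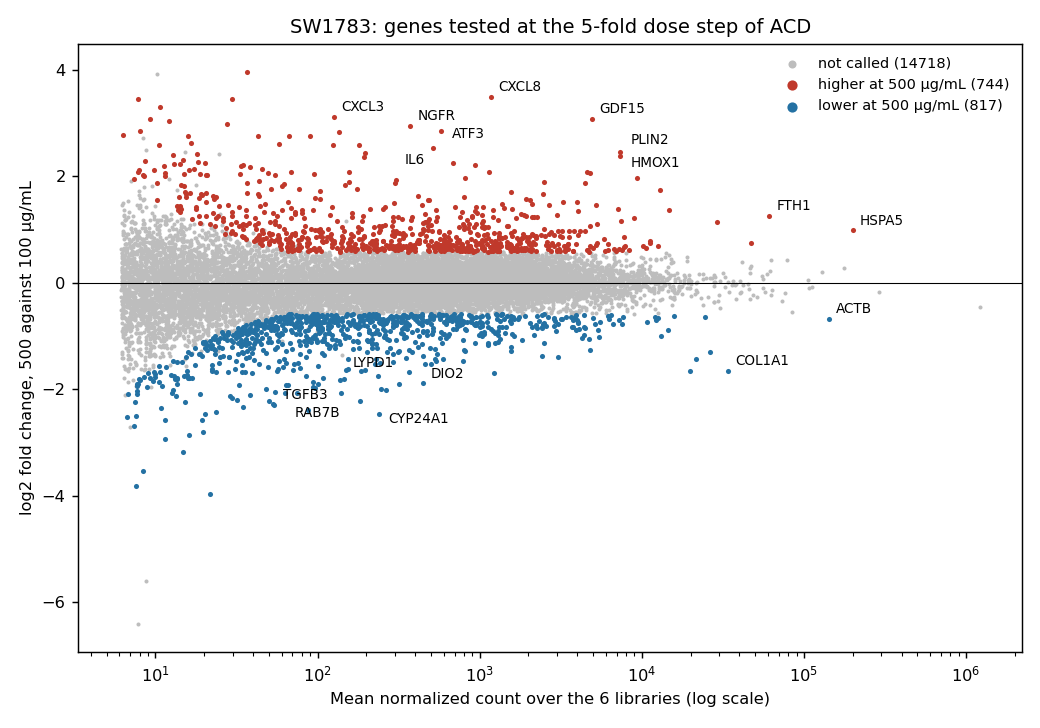
Each point is a gene tested in SW1783, with its mean normalized count over the 6 libraries on the horizontal log axis and its log2 fold change, 500 against 100 µg/mL, on the vertical axis. DEGs are red where higher (744) and blue where lower (817), and CXCL8 and GDF15 stand out among the well-counted genes that rose, with log2 fold changes of 3.50 and 3.08.

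The largest rise among well-counted genes was that of CXCL8 (ENSG00000169429, chr4:73740519-73743716 on the plus strand of GRCh38), the neutrophil chemokine interleukin-8. Its normalized counts were 2195, 2277 and 2012 in replicates 1, 2 and 3 at 500 µg/mL and 177, 219 and 177 at 100 µg/mL. The doses were far apart, and the log2 fold change was 3.50 ± 0.09 (SE), or 11.3-fold. GDF15, a stress-induced hormone of the TGF-beta superfamily, had 8500, 8897 and 8900 normalized counts at the high and 980, 1026 and 1102 at the medium dose. Its log2 fold change was 3.08 ± 0.04, or 8.45-fold, and here too the lowest high dose library lay far above the highest medium dose library. The adjusted p-values of both genes were below the smallest number that DESeq2 printed.

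The other large rises of well-counted genes mixed signalling, inflammation and metabolism. NGFR, the low-affinity neurotrophin receptor, stood at 612, 721 and 649 normalized counts against 84.3, 83 and 89.4, a log2 fold change of 2.95 ± 0.13. ATF3, a transcription factor of the stress response, stood at 972, 1061 and 1000 against 120, 133 and 165 (2.85 ± 0.11). In both genes the gap between the doses was far larger than the spread of the replicates. PLIN2, which coats lipid droplets, stood at 11977, 12966 and 12114 against 2238, 2211 and 2278 (2.46 ± 0.04). HMOX1, the enzyme that breaks down haem and a target of NRF2, stood at 11952, 11957 and 12996 against 2233, 2479 and 2404 (2.37 ± 0.04). KCP, a secreted modulator of BMP signalling, rose from 60.6 ± 12.5 (SD, n = 3) to 328 ± 26.9, and IER3, an early response gene, from 51.6 ± 7.75 to 310 ± 10.5. The largest adjusted p-value among the 12 largest rises was 1.64e-32 with DESeq2.

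Among the well-counted genes that fell, CYP24A1, the mitochondrial enzyme that inactivates vitamin D, changed most. Its normalized counts were 71.6, 70.1 and 80 at 500 µg/mL and 382, 435 and 405 at 100 µg/mL, so that all 3 libraries of the higher dose were well below the others, and its log2 fold change was −2.46 ± 0.15. RAB7B, a small GTPase of the late endosome, stood at 70.5, 64.7 and 59.5 against 349, 291 and 263 (−2.21 ± 0.18). DIO2, the deiodinase that activates thyroid hormone, stood at 222, 176 and 174 against 752, 682 and 677 (−1.89 ± 0.11). These falls also left a wide gap between the doses.

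Some of the other large falls of well-counted genes were in regulators of transcription and development. ATOH8, a basic helix-loop-helix factor, fell by 1.91 on the log2 scale. ID2, an inhibitor of such factors, stood at 106, 106 and 104 against 411, 410 and 449, and TGFB3, a ligand of the TGF-beta receptors, at 60.1, 47.6 and 53 against 228, 222 and 224. Their log2 fold changes were −2.01 ± 0.14 and −2.07 ± 0.19. The remaining falls shown were those of RNF112, a RING finger protein (−1.91), ARSI, a sulfatase (−1.84), ST6GALNAC5, a sialyltransferase (−1.81), STON2, an endocytic adaptor (−1.78), and LYPD1, a protein of the Ly6 family (−1.75). The largest adjusted p-value among the 11 falls shown was 1.05e-14 with DESeq2, for STON2, whose 3 high dose values of 54.3, 58.4 and 33.5 were also the least even.

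**Figure D2:**
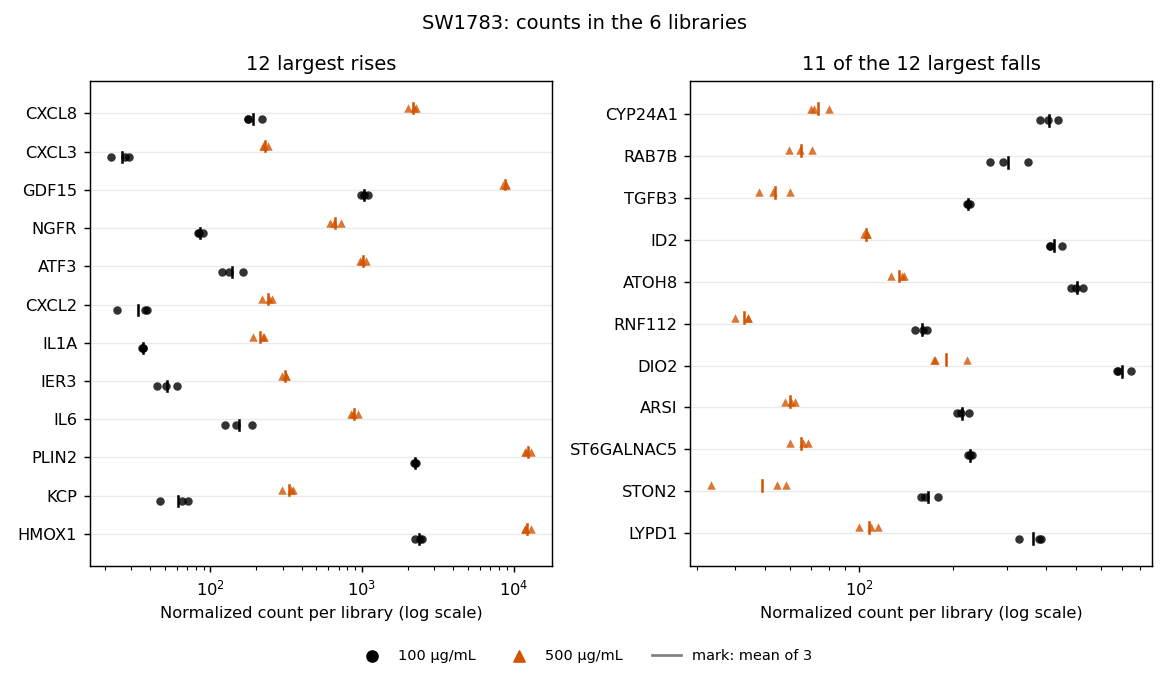
Normalized counts per library on a log axis for the 12 largest rises (left) and 11 of the 12 largest falls (right) among well-counted DEGs of SW1783, with black circles for 100 µg/mL, orange triangles for 500 µg/mL and a vertical mark for the mean of 3. The 23 genes were chosen among DEGs without overlap between the 2 doses, so its absence here was fixed by the choice. The spread within a dose is small beside the gap, from 177, 219 and 177 to 2195, 2277 and 2012 for CXCL8 at the top left.

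The DEGs with the most counts, a quantity that also depends on gene length, were a chaperone, ferritin, collagens and actin. HSPA5, the main chaperone of the ER, had 269194, 271327 and 256039 normalized counts at the high and 134952, 135649 and 131497 at the medium dose (log2 fold change 0.99 ± 0.02). The ferritin chains FTH1 and FTL, which store iron, rose by 1.26 ± 0.03 and 0.74 ± 0.08 on the log2 scale. COL1A1, an alpha chain of type I collagen, stood at 17314, 16116 and 16083 against 52285, 53710 and 49570 (−1.65 ± 0.03). COL5A1, a fibril-forming chain too, went from 37717 ± 856 to 15321 ± 738. ACTB, cytoplasmic beta-actin and a common reference gene, went from 176343 ± 4865 to 110524 ± 3232 normalized counts, a log2 fold change of −0.67 ± 0.03 (adjusted p = 8.45e-141, DESeq2). A gene often used to scale assays was therefore itself a DEG at this step.

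Regulators of the integrated stress response were among the DEGs that rose. Of 16 tested members of a list of 17, 9 were higher DEGs and none was lower, with a median log2 fold change of 0.71. GDF15 and ATF3 led. DDIT3, the death-promoting factor CHOP, had 7795, 8123 and 7104 normalized counts against 1971, 1821 and 1758 (log2 fold change 2.05 ± 0.05). PPP1R15A, which directs the phosphatase that restores eIF2, had 6871, 7007 and 7067 against 1806, 1939 and 1968 (1.87 ± 0.04). The libraries of the doses did not overlap in either gene. TRIB3, a pseudokinase induced by ATF4, rose from 2790 ± 90.6 to 7717 ± 53.4, and NUPR1, a small chromatin protein of stress, from 612 ± 41.5 to 1472 ± 64. SESN2, CEBPG and CEBPB rose by 0.86, 0.69 and 0.73 on the log2 scale.

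The other members separated from these. ATF4 itself was at 5564 ± 189 and 8352 ± 283 normalized counts, a log2 difference of 0.58 ± 0.04 (adjusted p = 3.39e-58, DESeq2), just under the fold threshold, so it was not a DEG. CHAC1, an enzyme that degrades glutathione, had 634, 604 and 675 normalized counts at the high and 615, 578 and 637 at the medium dose, and its groups overlapped (log2 difference 0.06 ± 0.09, adjusted p = 0.61). The log2 differences of DDIT4, EIF4EBP1, ATF5, VLDLR and JDP2, not called either, were 0.36, 0.43, −0.39, −0.07 and −0.04. FGF21 did not pass the count filter of DESeq2.

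Genes of amino acid supply showed smaller differences, with DEGs in one direction. Of 16 genes of amino acid and one-carbon synthesis, 6 were higher DEGs and none was lower (median log2 fold change 0.36). ASNS, asparagine synthetase, stood at 7273, 7506 and 7550 normalized counts against 4126, 4229 and 4319, without overlap (0.82 ± 0.03, adjusted p = 1.88e-126, DESeq2). CTH, which makes cysteine from cystathionine, rose from 328 ± 11.5 to 771 ± 10.4, and GOT1, CBS, MTHFD2 and ALDH1L2 rose by 0.80, 0.78, 0.62 and 0.62 on the log2 scale. The serine synthesis enzymes PHGDH, PSAT1 and PSPH were not called, at 0.29, 0.19 and 0.14. Of 11 tested amino acid transporters 3 were higher DEGs, SLC7A11 (0.87), the cystine carrier, its partner SLC3A2 (0.64) and SLC43A1 (1.09). Of 20 cytoplasmic tRNA synthetases, GARS1 (0.79) and AARS1 (0.70) were DEGs, a share of 10.0% beside 9.59% of all genes tested.

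ER chaperones and sensors shared their sign. All 23 members of the list had a positive log2 fold change, from 0.12 to 1.39, and 7 were DEGs (median 0.39). HERPUD1, a component of ER-associated degradation, stood at 10304, 10432 and 10162 normalized counts against 3870, 4018 and 3861 (1.39 ± 0.03). The co-chaperone DNAJB9 rose from 1098 ± 79.3 to 2664 ± 15, ERN1 from 718 ± 25.5 to 1685 ± 41.7 and XBP1, the factor that ERN1 activates by splicing, from 2969 ± 109 to 4908 ± 126. The large chaperones CANX, HSP90B1 and CALR were not DEGs, with log2 differences of 0.13, 0.32 and 0.27. HSPA5 thus stood 1.98-fold higher while these 3 stayed within 1.5-fold.

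**Figure D3:**
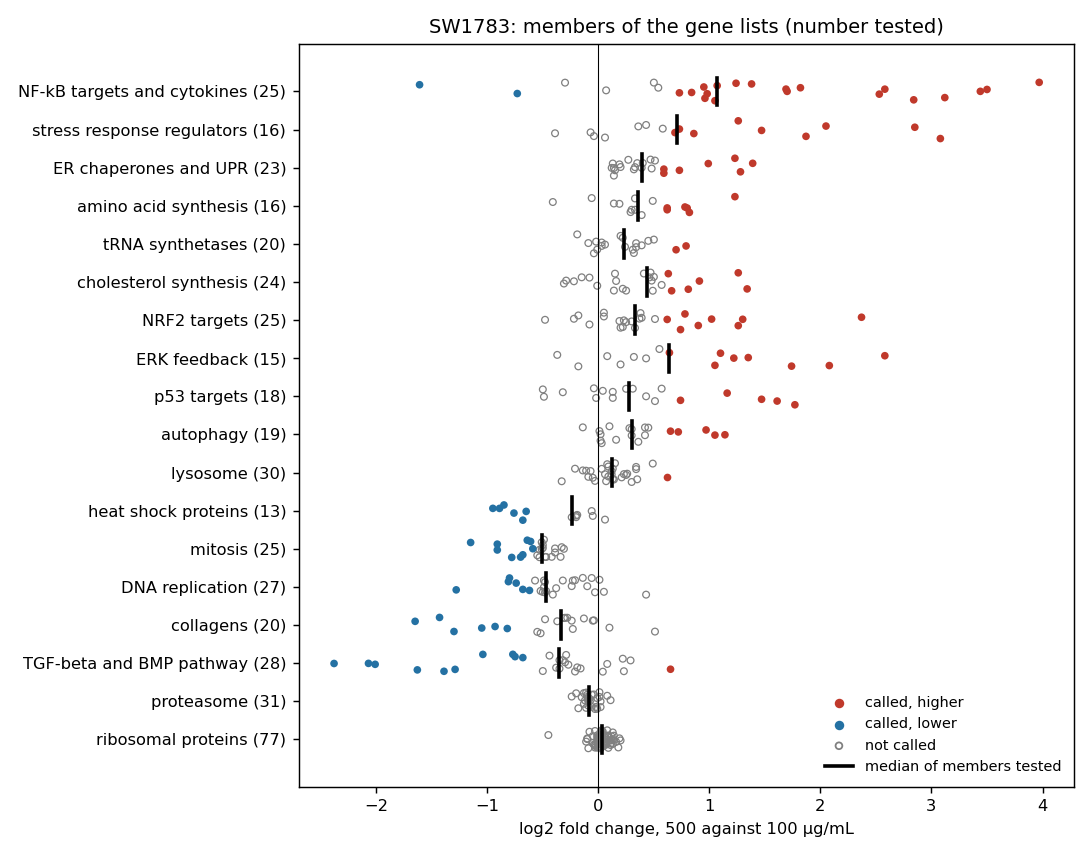
Log2 fold change, 500 against 100 µg/mL, of the tested members of 18 gene lists in SW1783, 1 row per list with the number tested in brackets. Filled points are DEGs (red higher, blue lower), open points are not called, and the black bar is the median, which is 1.07 for NF-kB targets and cytokines, −0.51 for mitosis and 0.03 for ribosomal proteins.

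Targets of NF-kB and cytokines had DEGs among 84.0% of the members tested, the largest share of the 18 lists in the plot of list members. Of 25 members tested, 19 were higher and 2 lower DEGs, with a median log2 fold change of 1.07 over all tested. CXCL3 stood at 222, 238 and 225 normalized counts against 22, 28.9 and 27.3 (log2 fold change 3.12 ± 0.23). CXCL2 stood at 218, 253 and 244 against 24.3, 38.2 and 36.7 (2.84 ± 0.21). CXCL1 stood at 53.1, 52.1 and 57.7 against 4.62, 3.73 and 6.59 (3.44 ± 0.49). These 3 chemokines of neutrophils are near-identical neighbours on chromosome 4, so the division of reads between them is uncertain, but all 3 were high in each high dose library.

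The cytokines IL6 and IL1A rose too. IL6 stood at 845, 942 and 866 normalized counts against 188, 148 and 125 (2.53 ± 0.12). IL1A, the alarm cytokine interleukin-1 alpha, stood at 191, 226 and 223 against 35.8, 35.4 and 35.8 (2.58 ± 0.21). Neither overlapped between doses. CSF2, the growth factor GM-CSF, was low throughout, with 58.9, 85.4 and 62.3 against 10.4, 2.8 and 0.941 (3.97 ± 0.51). In the opposite direction CXCL12, a chemokine that holds blood stem cells in the marrow, went from 234 ± 20.9 to 76.2 ± 5.7, and IL11 from 1385 ± 153 to 834 ± 57.6. The pathway members NFKBIA, NFKBIE and NFKB1 were not DEGs, at 0.54, 0.50 and 0.07.

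The letters GGNNTTTCC, a core of the NF-kB motif in which N is any base, were found on either strand in 14 of the 24 list members with a promoter in the RefSeq table, and in 10 of the 18 that were DEGs. Of all 27305 promoters of the same 300-base length, 6.26% held them. The sequences of CXCL8 and CXCL3 are shown because these chemokines rose most among well-counted genes. They lie upstream of the RefSeq start on GRCh38.p14, at chr4:73740319-73740518 on the plus strand (CXCL8) and chr4:74038749-74038778 on the minus strand (CXCL3, a stretch of 30 bases). The capitals mark the match, which began 91 and 78 bases before the start.
CXCL8: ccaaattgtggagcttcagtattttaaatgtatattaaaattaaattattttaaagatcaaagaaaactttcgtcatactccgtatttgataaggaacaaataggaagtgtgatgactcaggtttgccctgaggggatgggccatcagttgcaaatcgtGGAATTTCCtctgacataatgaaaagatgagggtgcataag
CXCL3: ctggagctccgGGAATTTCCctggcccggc
The matched letters were the same in both, and CXCL3 held another match 53 bases before its start. A match is a description of the letters, and binding was not measured.

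For the stress lists the same search gave fewer matches. TGATGNAA, a core of the element bound by ATF4 with C/EBP proteins, was in 3 of 15 promoters of stress regulators, 3 of 10 of amino acid synthesis and 6 of 16 of tRNA synthetases, beside 3.67% of all promoters. The ER stress element, CCAAT followed after 9 bases by CCACG, was in 6 of 22 promoters of the ER list and in 0.08% of all. Among the 7 DEGs of the ER list it was in HSPA5 and XBP1. ASNS and HSPA5 are shown for the genes of highest count or best-known element in these lists, from chr7:97872458-97872487 (minus strand) and chr9:125241383-125241593 (minus strand), with the match in capitals.
ASNS: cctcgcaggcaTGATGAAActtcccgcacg
HSPA5: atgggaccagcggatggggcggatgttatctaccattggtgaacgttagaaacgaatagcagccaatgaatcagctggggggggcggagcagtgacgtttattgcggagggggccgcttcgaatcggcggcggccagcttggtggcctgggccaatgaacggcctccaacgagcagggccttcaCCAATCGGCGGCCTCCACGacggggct
The matches began 68 and 66 bases before the RefSeq starts. TGACGTCA, the full site for ATF and CREB factors, was in the promoter of PPP1R15A alone among 15 stress regulators and in 1.98% of all promoters.

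Feedback genes of the ERK kinase cascade had DEGs in one direction. Of 15 members, 8 were higher DEGs and none was lower (median 0.64). DUSP5, a nuclear phosphatase of ERK, stood at 1828, 1916 and 1787 normalized counts against 442, 431 and 432 (2.08 ± 0.07), with no overlap. PHLDA1 rose from 5951 ± 83.2 to 19911 ± 573, and SPRY2, DUSP1, DUSP6, SPRY4 and ETV4 rose by 1.35, 1.22, 1.10, 1.05 and 0.64 on the log2 scale. IER3 was the other DEG of the list. Among 14 tested immediate early genes, MAFF (1.42), NR4A1 (1.05), JUND (1.03) and FOSL1 (0.69) were higher and EGR3 (−0.74) was lower, while FOS and EGR1, at −0.40 and 0.18, were not called. The call of EGR3 was lost without replicate 2 of the high dose (−0.59, adjusted p = 0.0683, DESeq2). The EGF-family ligands HBEGF and EREG rose by 0.66 and 0.62, and IRS2 and IGFBP1 of the insulin-like growth factor axis by 1.56 and 0.73. EREG was no longer a DEG without replicate 1 (0.60) or 2 (0.53) of the high dose or replicate 2 (0.66) or 3 (0.50) of the medium dose.

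Targets of NRF2 rose in part. Of 25 members, 8 were higher DEGs and none was lower (median 0.33), and HMOX1, FTH1 and FTL of these were described above. GCLC, the catalytic subunit of the enzyme that starts glutathione synthesis, rose from 1044 ± 44.3 to 2569 ± 57.8, MAFG, a partner of NRF2, from 1659 ± 60.7 to 3354 ± 26.9, and OSGIN1 by 0.90 on the log2 scale. AKR1C1, an aldo-keto reductase, and SRXN1, which repairs oxidised peroxiredoxins, were the other DEGs (0.78 and 0.62). TXNRD1, TKT and PRDX1 were not called, at 0.38, 0.20 and −0.18. The core TGACNNNGC of the antioxidant response element was in 4 of 19 promoters of the list, none of them among the 6 DEGs with a promoter, and in 13.56% of all promoters. Of 7 tested metallothioneins, the metal-binding proteins, none was a DEG with DESeq2 or edgeR, and 3 had an unadjusted p-value under 0.05. Of 6 tested targets of the aryl hydrocarbon receptor none was a DEG with either tool, and 4 had such a p-value.

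Some autophagy genes rose, while the lysosome list had a single DEG. SQSTM1, the receptor p62, stood at 39033, 40334 and 41102 normalized counts against 18058, 18432 and 18256 (log2 fold change 1.14 ± 0.03). WIPI1, a protein of the forming autophagosome, rose from 739 ± 4.06 to 1528 ± 62.4 and MAP1LC3B, which marks its membrane, from 2416 ± 108 to 4731 ± 95.6. With GABARAPL1 (0.72) and OPTN (0.65) these were the 5 DEGs among 19 members, all higher (median 0.30). Of 30 lysosomal genes, NPC1, a cholesterol exporter of the lysosome, was a DEG (0.62), or 3.33% of the list. PSAP, CD63 and LAMP1 were not called.

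Some lipid genes rose, in synthesis and in export. Of 24 members of the cholesterol list, 6 were higher DEGs and none was lower (median 0.43). INSIG1, the ER protein that retains SREBP when sterol is plentiful, stood at 5684, 5760 and 5886 normalized counts against 2192, 2320 and 2317 (1.34 ± 0.04). MSMO1 rose from 772 ± 6.89 to 1447 ± 67.5 and SQLE, squalene epoxidase, from 1177 ± 24.4 to 1863 ± 33, and STARD4, a sterol carrier, by 0.81 on the log2 scale. CYP51A1 and FDFT1 were not called, at 0.48 and 0.46. Of 10 fatty acid synthesis genes, SREBF1 (0.83) and SCD rose, the latter, the desaturase that makes oleate, with 10126, 10286 and 10602 against 4474, 4712 and 4631 (1.17 ± 0.03).

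The cholesterol exporters ABCA1 and ABCG1 also rose. ABCA1 stood at 7453, 7496 and 7236 normalized counts against 1791, 1689 and 1800 (2.07 ± 0.04). ABCG1 stood at 70.5, 80 and 76.3 against 2.31, 15.9 and 14.1 (2.77 ± 0.39). The gap between doses was wide in both, though ABCG1 was low at 100 µg/mL. These were the 2 DEGs among 5 genes of sterol efflux. The sterol element TCACNCCAC was in 1 of 18 promoters of the cholesterol list, that of SREBF2, and in 1.15% of all promoters.

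Some genes of growth arrest and cell death rose. Of 18 p53 targets, 5 were higher DEGs and none was lower (median 0.28). CDKN1A, the cell cycle inhibitor p21, stood at 1173, 1226 and 1237 normalized counts against 374, 411 and 402 (1.61 ± 0.08, adjusted p = 2.34e-93, DESeq2). GADD45A rose from 1427 ± 50.1 to 3941 ± 102 and PLK3 from 297 ± 16.8 to 664 ± 1.09. BBC3, the death protein PUMA, was at 23.6 ± 3.57 and 79.7 ± 10.9 (1.77 ± 0.30), and TP53INP1 rose by 0.74. MDM2, BAX and FAS, also on this list, were not called, at 0.57, 0.04 and −0.02.

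Among 15 tested genes of the BCL2 family and death receptors, 5 were higher DEGs and 1 was lower. TNFRSF10B, the death receptor DR5 and a target of CHOP, stood at 5892, 6019 and 5695 normalized counts against 2041, 2076 and 2057 (1.51 ± 0.04). HRK, a BH3-only death protein, was low at both doses, 49.7, 51.2 and 47.5 against 4.62, 9.32 and 4.71 (2.97 ± 0.47). The libraries did not overlap in either. BCL2L11 (1.00), PMAIP1 (0.87) and TNFRSF10A (0.68) were the other DEGs that rose, and the decoy receptor TNFRSF10D fell by 1.13 on the log2 scale. TNFRSF10A was no longer a DEG without replicate 1 (0.65) or 2 (0.64) of the high dose or replicate 3 of the medium dose (0.61).

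Cell cycle genes included DEGs that fell at the high dose. All 25 members of the mitosis list had a negative log2 fold change, from −1.15 to −0.31, and 9 were DEGs (median −0.51). KIF20A, a kinesin of cytokinesis, stood at 733, 675 and 694 normalized counts against 1571, 1569 and 1524 (−1.15 ± 0.06). MKI67, the proliferation marker Ki-67, stood at 2239, 1912 and 2023 against 3912, 3759 and 3885 (−0.91 ± 0.05). Every high dose library was below every medium dose library in both. AURKA, CCNA2 and CENPF fell by 0.91, 0.78 and 0.70 on the log2 scale, and CDC20, TPX2 and PRC1 were not called, at −0.47, −0.50 and −0.31. In bulk libraries a lower level per cell cannot be told apart from fewer cells that hold the RNA.

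DNA replication genes had the same sign with exceptions. Of 27 members 6 were lower DEGs and none was higher (median −0.47), and 3 had a positive log2 fold change, the highest 0.43. UHRF1, which maintains DNA methylation, went from 1156 ± 32.9 to 475 ± 22.7 normalized counts (−1.28 ± 0.08). CCNE2, MCM10 and MCM3 fell by 0.80, 0.74 and 0.68 on the log2 scale. Of 11 tested G1 regulators, CDKN2C was lower (−1.27) and CDKN2B higher (0.86), both of them inhibitors of the same kinases.

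Part of the collagens and TGF-beta genes were lower. Of 20 collagen genes, 6 were lower DEGs and none was higher (median −0.34). COL1A2 stood at 12401, 11563 and 11241 normalized counts against 32823, 32598 and 29572 (−1.43 ± 0.06). COL3A1, COL11A1 and COL8A1 fell by 1.05, 0.93 and 0.82 on the log2 scale. The beaded filament chains COL6A1 and COL6A2 and the basement membrane chain COL15A1 were not called, at −0.05, 0.10 and 0.51. Among 15 matrix glycoproteins THBS1, an activator of latent TGF-beta, stood at 10400, 9227 and 9217 against 30567, 31045 and 29099 (−1.65 ± 0.06). THBS2 fell by 0.63, and FN1 and SPARC, at −0.08 and −0.31, were not called. ELN, elastin, was the other DEG of the 15 (−0.81), and its call was lost without replicate 2 (−0.75) or 3 (−0.79) of the high dose or replicate 2 (−0.77) or 3 (−0.81) of the medium dose. LOXL1 (−0.79) was the single DEG of 12 crosslinking genes and MMP1 (0.71), a collagenase, that of 15 proteases and inhibitors. Both shares, 8.33% and 6.67%, were below the 9.59% of all genes tested.

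Of 28 genes of the TGF-beta and BMP pathways, 10 were lower DEGs and 1 was higher (median −0.35). Beside TGFB3 and ID2, the target CCN4 stood at 24.3, 26.1 and 33.5 normalized counts against 146, 159 and 135 (−2.38 ± 0.25). SMAD6, an inhibitor of BMP signalling that BMP itself induces, stood at 92.4, 95.2 and 100 against 289, 319 and 286 (−1.63 ± 0.15). ID3 stood at 1675, 1561 and 1818 against 4134, 4667 and 4477 (−1.39 ± 0.06). None of the 3 overlapped between doses. The co-receptor TGFBR3 rose by 0.65, or 0.58 and under the fold threshold without replicate 1 of the high dose, and the targets TGFBI and CCN1 were not called, at −0.19 and 0.22.

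Some cytosolic heat shock proteins were lower at the high dose. Of 13 members, 6 were lower DEGs and none was higher (median −0.24). HSPA8, the constitutive HSC70, stood at 10222, 9926 and 10477 normalized counts against 18417, 18728 and 19665 (−0.89 ± 0.03, adjusted p = 2.01e-179, DESeq2). HSPB1, the small heat shock protein HSP27, stood at 3145, 3095 and 3293 against 5523, 5691 and 5992 (−0.85 ± 0.04). The doses were apart in both. HSPA1A, HSPA1B, DNAJA1 and HSPB8 fell by 0.95, 0.76, 0.68 and 0.65 on the log2 scale, the first pair being near-identical copies. HSPB8 was at −0.58 and not a DEG without replicate 3 of either dose. HSP90AA1, DNAJB1 and BAG3 were not called, at −0.24, −0.19 and −0.20.

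The letters GAANNTTC, a core of the heat shock element, were in the promoters of 6 of the 12 list members in the RefSeq table, and these 6 were the DEGs, beside 6.87% of all promoters. The stretches shown lie at chr11:123062168-123062197 on the minus strand (HSPA8, 30 bases) and chr7:76302423-76302672 on the plus strand (HSPB1), with the match in capitals.
HSPA8: ggccccttctgGAAGGTTCtaagatagggt
HSPB1: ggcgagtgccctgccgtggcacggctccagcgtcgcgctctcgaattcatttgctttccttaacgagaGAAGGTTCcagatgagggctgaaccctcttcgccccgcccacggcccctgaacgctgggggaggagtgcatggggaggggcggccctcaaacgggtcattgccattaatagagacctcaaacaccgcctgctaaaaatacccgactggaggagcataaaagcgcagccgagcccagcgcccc
The match in HSPA8 began 50 bases before its start and that in HSPB1 182 bases before, and HSPA8 held another one at 230 bases. Of the 6 genes with the letters, HSPB8 lost its call without replicate 3 of either dose. Binding was not measured here either.

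The lists of ribosomal proteins, ribosome biogenesis and the proteasome gave no DEGs. None of 77 ribosomal protein genes was a DEG with DESeq2 or edgeR, their log2 fold changes ranged from −0.45 to 0.20 (median 0.03), and 24 had an unadjusted p-value under 0.05. None of 31 proteasome genes was a DEG with either tool, with a range of −0.24 to 0.11 (median −0.08) and 14 such p-values. Ribosome biogenesis gave 0 DEGs of 26 with both tools and 13 unadjusted p-values under 0.05.

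Mitochondrial RNA took a smaller part of the counts at the high dose through its ribosomal RNA. MT-RNR1 and MT-RNR2 together held 5.96, 5.76 and 6.06% of counts at 500 µg/mL and 7.76, 8.05 and 7.67% at 100 µg/mL. The difference of −1.899 percentage points had a two-sided exact permutation p of 0.1, the smallest that 3 against 3 libraries allow. The share at the high dose was still above the 0.932 ± 0.0251% of vehicle and 3.14 ± 0.164% of the low dose. The libraries were of mRNA, so these shares depend on how ribosomal RNA was carried through. Per gene, MT-RNR2 and MT-RNR1 had log2 differences of −0.46 and −0.17 and were not DEGs. The 13 mitochondrial mRNAs had a median of 0.27 and no DEG with DESeq2 or edgeR (10 with an unadjusted p-value under 0.05), with 0.43 for MT-ND4 and −0.13 for MT-CYB. Of 49 nuclear genes of oxidative phosphorylation ATP5MC3 was a DEG (−0.80), and of 14 genes of mitochondrial RNA handling SUPV3L1, a helicase, was one (0.75). Both shares, 2.04% and 7.14%, were below the 9.59% of all genes tested.

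Glycolysis and hypoxia genes split. Of 23 members 7 were higher and 3 lower DEGs. HKDC1, a hexokinase-like enzyme, stood at 1059, 1187 and 1169 normalized counts against 224, 254 and 240 (2.25 ± 0.09). NDRG1, induced by hypoxia and iron loss, rose from 1063 ± 30.6 to 3951 ± 130, and ADM from 232 ± 22.3 to 524 ± 16.8. TXNIP, a brake on glucose uptake, stood at 157, 140 and 109 against 62.4, 56.9 and 39.5 (1.36 ± 0.24). EGLN3, an oxygen sensor of the HIF pathway, stood at 17.3, 21.6 and 18.6 against 75.1, 80.2 and 76.2, with no overlap (adjusted p = 1.47e-09, DESeq2). LDHA, lactate dehydrogenase, went from 29858 ± 118 to 19182 ± 321 (−0.64 ± 0.02) and PFKFB4 fell by 0.64, while ENO1, ALDOA and PGK1 were not called. Of 20 interferon-stimulated genes IRF1 (1.24), IFIT2 (1.24), IRF7 (0.92) and IFIT3 (0.61) were higher DEGs, with a median over the list of 0.02. IFIT3 fell under the fold threshold without replicate 3 of the high dose (0.57) or replicate 2 of the medium dose (0.51).

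Many genes of channels and neurotransmitter receptors had too few counts to be tested. Of 13 sodium channel genes, the class on which aconite alkaloids act, 6 could be tested, and SCN3A was a DEG, with 164, 177 and 155 normalized counts against 251, 254 and 241 (−0.59 ± 0.14). Of 30 calcium and potassium channel genes 20 were tested. KCNK2 and KCND2 were DEGs with DESeq2, at −1.66 ± 0.29 and −1.71 ± 0.70. Their share of 10.0% is near the 9.59% of all genes tested, but with edgeR 5 of the 20 were DEGs. Of 44 neurotransmitter receptors 21 were tested and 3 were DEGs (14.3%), all lower. HTR2A, a serotonin receptor, stood at 31.2, 28.8 and 22.3 against 118, 101 and 92.2 (−1.92 ± 0.27), and the adrenergic receptors ADRA1D and ADRA2A fell by 0.83 and 2.68 on the log2 scale. SCN3A lay at the fold threshold and was at −0.58 with edgeR and −0.58 to −0.54 without replicate 1 or 3 of the high dose or replicate 1 or 2 of the medium dose, no longer a DEG. KCND2 lost its call without replicate 2 (−1.29) or 3 (−1.86) of the high dose or replicate 1 (−1.76), 2 (−1.93) or 3 (−1.36) of the medium dose. ADRA2A passed below the count filter of DESeq2 without replicate 2 of the high dose (−2.30) or any medium dose replicate (−2.91 to −2.41).

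A list of 1039 gene symbols was read from the supplement on the brain system network, which was compiled for this study. The study built the network from proteins expressed mainly in brain tissues and linked in a database of protein interactions. The list had 549 genes that were tested here. Of these, 24 were higher and 63 lower DEGs, which is 15.8% of those tested beside 9.59% of all genes (median log2 fold change −0.11 beside −0.004). STON2, PPFIA4, SLC1A3, GABRE and SNAP25 led the falls among its well-counted members (−1.78, −1.57, −1.51, −1.43 and −1.22), and RAB39B, GAB2, SCG5, BEST1 and CNIH3 the rises (1.62, 1.49, 1.42, 1.21 and 1.04). SLC1A3, a glutamate transporter of astrocytes, was also an astrocyte marker, as was NES (−0.99). Among neuron markers SNAP25, TUBB3 and NEFL were lower (−1.22, −1.12 and −0.71) and MAP2 was higher (0.79), with a summed level of 95.8 to 97 CPM against 128 to 135 CPM. NEFL lost its call without replicate 2 (−0.70) or 3 (−0.63) of the high dose or replicate 2 (−0.76) or 3 (−0.55) of the medium dose. The oligodendrocyte list summed to 12.8 to 13.3 CPM against 8.14 to 9.27 CPM, with MOG, OLIG1 and SOX10 at 0. Most of that sum was MBP, at means of 11.8 and 8.13 CPM, which was not called (0.53). OLIG2 was a higher DEG (2.04), though low, at means of 1.12 and 0.267 CPM. The microglia list summed to 181 to 193 CPM against 158 to 185 CPM, with AIF1 and TYROBP at 0. Nearly all of the microglia sum was CD68, which was not called (0.18), while PTPRC and CSF1R, the other tested members, were lower DEGs (−1.07 and −0.93), and CSF1R lost its call without replicate 2 of the medium dose (−0.87, adjusted p = 0.0601, DESeq2). The part of these lists in the other results was not tested.

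Non-coding RNAs with a mean of 100 or more normalized counts also rose and fell. ENSG00000278266, which overlaps other genes on its strand, stood at 340, 311 and 322 normalized counts against 62.4, 64.3 and 63.1 (2.36 ± 0.16). NAV2-AS6 was the next largest rise among them (1.26 ± 0.15). PHLDA1-AS1, antisense to PHLDA1, had 1.06 ± 0.42 with an adjusted p-value of 0.0357 (DESeq2), and this call was lost without replicate 2 (1.15) or 3 (0.79) of the high dose or replicate 1 (0.80) or 3 (1.02) of the medium dose. ENSG00000263424, APCDD1L-DT and LINC03033 fell by 1.33, 1.15 and 1.11 on the log2 scale.

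The levels at all doses placed the step in the whole series. On a scale shared by the 12 libraries of batch B, GDF15 was at 78, 151, 1037 and 8795 normalized counts in vehicle and at 20, 100 and 500 µg/mL (means of 3). HSPA5 was at 74313, 84547, 134215 and 266400, and ASNS at 1021, 1369, 4230 and 7468, so each had begun to differ below the high dose. CXCL8 was at 101, 85.4, 191 and 2168. INSIG1 was at 2651, 2555, 2279 and 5796, CYP24A1 at 391, 398, 408 and 74.2, and ID3 at 4768, 4838, 4431 and 1690, so in these 3 genes the first 3 levels lay close together and the fourth apart. CHAC1 was at 84, 135, 611 and 640, level across the last step. TXNIP was at 177, 87.8, 53 and 136, which made it lowest at 100 µg/mL. These levels are descriptions, and vehicle and low dose entered no test here.

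**Figure D4:**
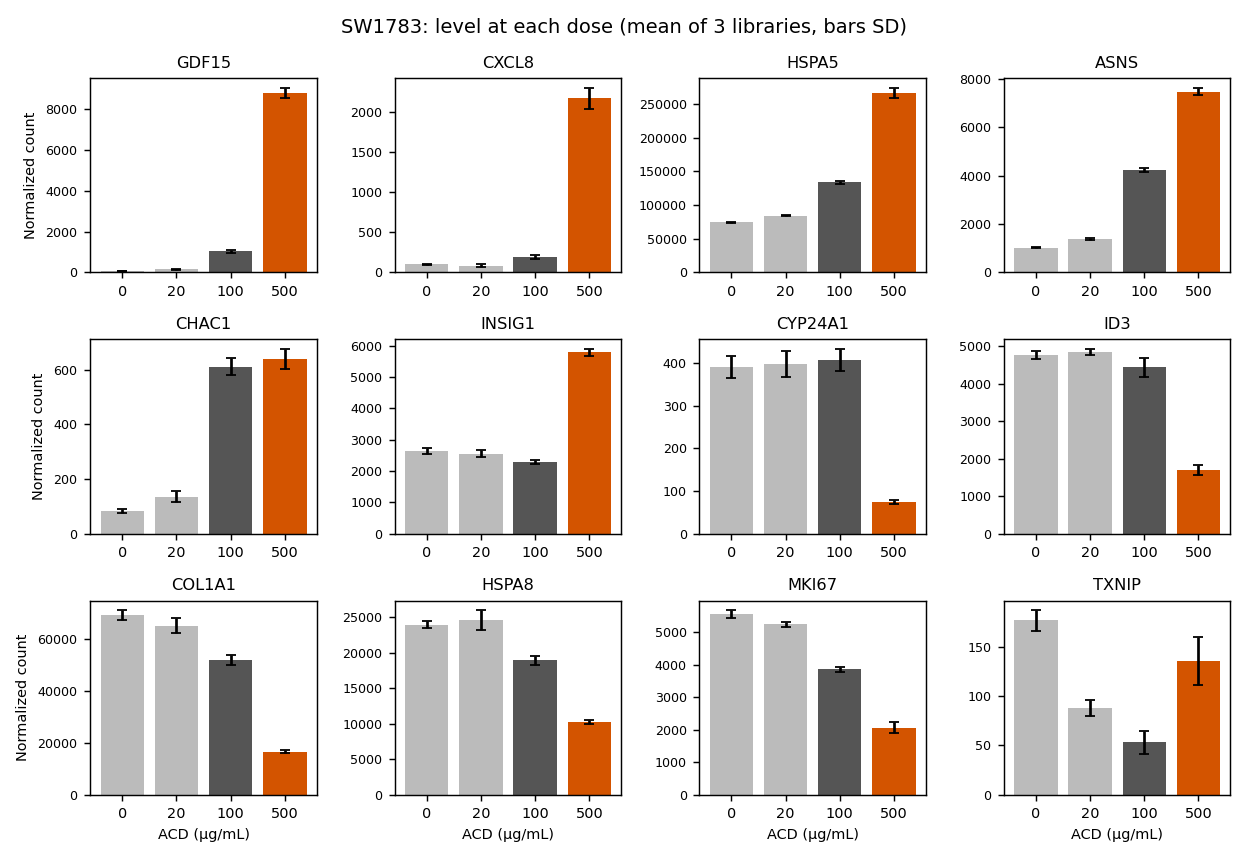
Bars show the mean normalized count of 3 libraries and error bars the SD for 12 genes of SW1783 at 0 (vehicle), 20, 100 and 500 µg/mL ACD, on a linear axis from 0 for each gene. The orange bar (500) and the dark bar (100) are the groups tested, and INSIG1 and CYP24A1 differ mainly in the last bar while CHAC1 is level between 100 and 500 µg/mL, at 611 and 640.

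The same step in HT29 was compared by an interaction term over the 12 libraries of both lines and doses. According to the study's methods, the lines were grown in different media, with CO2 for HT29 only, and plated at different cell numbers. A difference between the lines cannot be told apart from these conditions. Of 15859 genes tested, 1070 (6.75%) had a difference between the lines at an adjusted p-value under 0.05 and more than 1.5-fold, 542 (3.42%) more positive and 528 (3.33%) more negative in SW1783. Replicate 2 of the high dose of HT29 was also left out, as 3841 genes in place of 2330 then passed without the fold threshold. With the fold threshold 1111 genes passed without this library. Of the 1477 DEGs of SW1783 that could be tested, 680 had such a difference. These DEGs were chosen by their change in the same SW1783 libraries, so a share above that of all genes was favoured by the choice. GDF15 had a log2 fold change of 0.23 ± 0.06 in HT29 and a difference of 2.82 ± 0.08 between lines (adjusted p = 2.92e-251, DESeq2). Cholesterol export and control differed as well, with −0.07 ± 0.14 for ABCA1 and −0.17 ± 0.06 for INSIG1 in HT29 and differences of 2.11 ± 0.15 and 1.49 ± 0.08.

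By list, 9 of 24 cholesterol genes, 12 of 26 NF-kB targets and 7 of 15 ERK feedback genes were more positive in SW1783. So were 10 of 13 mitochondrial mRNAs and 10 of 20 interferon-stimulated genes, and none in these lists was more negative. The last 2 lists had medians of 0.25 and −0.01 in SW1783 and −0.91 and −0.51 in HT29. Over all genes tested the shares were 3.42% more positive and 3.33% more negative. For mitosis 11 of 25 and for DNA replication 11 of 27 were more negative and none more positive, with medians in HT29 of 0.00 and 0.05. UHRF1 was at 0.00 ± 0.05 in HT29, a difference of −1.31 ± 0.08. Of 28 TGF-beta and BMP genes 9 were more negative and 1 was more positive. The stress regulators split, with 4 more positive and 4 more negative of 16 and medians of 0.69 in SW1783 and 0.97 in HT29. CHAC1 was among the latter, rising by 2.42 ± 0.13 in HT29, and MT-RNR1 and MT-RNR2 had log2 fold changes of 3.25 ± 0.07 and 2.51 ± 0.07 there against negative values in SW1783.

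**Figure D5:**
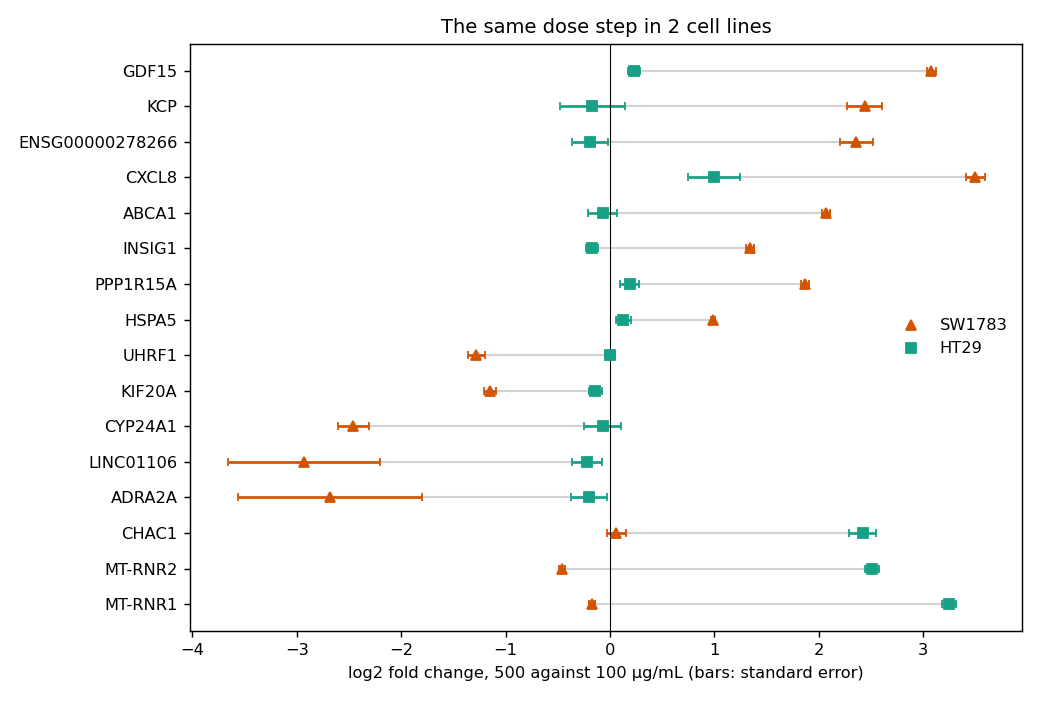
Log2 fold change ± SE, 500 against 100 µg/mL, of 16 genes in SW1783 (orange triangles) and HT29 (green squares), joined by a grey line. GDF15, at 3.08 and 0.23, differs most among the first rows, and CHAC1, MT-RNR2 and MT-RNR1 at the bottom are far higher in HT29, at 2.42, 2.51 and 3.25.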

How the data were processed

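Directional mRNA libraries of SW1783 cells were sequenced from both ends on an MGI sequencer. According to the processing notes of the submitters, reads were checked with FastQC 0.11.9 and trimmed with Trim Galore 0.6.5, and the authors then aligned them with STAR 2.7.3a and quantified genes with RSEM 1.3.3. The methods name the genome both as GRCh38 and as hg19, an older build, and the labels name GRCh38, so positions from GENCODE 44 on GRCh38 describe genes only. The deposited values are RSEM expected counts per gene and library, not normalized, and 8.74% of them in the 6 libraries were not whole. How RSEM used strand, and how ribosomal RNA was removed, were not given in the sources used here. RSEM divides reads of near-identical genes by a model, and CXCL1, CXCL2, CXCL3, HSPA1A and HSPA1B are uncertain for that reason, as are genes that overlap another on their strand, among them GDF15, KCP, NGFR, DDIT3, ASNS, HERPUD1, HSPA8, THBS1, NDRG1, GCLC, LDHA and STON2. Of 60675 genes in the table, 56558 matched a symbol, and those without held 0.146% of the counts.

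Counts were rounded and the 6 libraries were fitted by dose with DESeq2 1.42.0 in R 4.3.3 (two-sided Wald test, default size factors, count filter and Cook's distance handling, Benjamini-Hochberg adjustment over all genes tested), the tool of the study's methods. Of 28390 genes with counts, 16279 had an adjusted p-value. DEGs passed 0.05 after adjustment and changed more than 1.5-fold. The dose step of SW1783 was compared with that of HT29 by an interaction term on 12 libraries. Shares of counts were compared by exact permutation tests. On simulated counts over 28390 genes, DESeq2 recovered 97% of 100 genes changed 2-fold and 92% of 100 changed 1.7-fold, with 0 false calls. The interaction over 31981 genes recovered 96% and 73%. The changed genes were drawn only from genes above a minimum count. The spread followed a set formula, and all other genes had no change. The rates therefore do not cover genes with few counts, and they give no error rate for the DEGs called here.

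The 48 gene lists from general knowledge, the naming rule and the comparison itself were chosen with earlier results of these data known. The rule named the 12 largest rises and falls among DEGs with a mean of 100 or more normalized counts and no overlap between doses, the 3 DEGs of highest count in each direction, the 3 largest non-coding changes of each sign, the 5 largest differences from HT29 of each sign, and, from lists, members of those of up to 20 genes, and of longer ones up to 5 DEGs in each direction and 3 genes that were not called. Many list members that it named are given by counts alone. Lists are described by counts and medians, genes in figures were picked from the named ones, and 3 of the genes picked for the text are not reported here. Promoter letters came from RefSeq (GRCh38.p14, 250 bases before to 50 after the start). Bases in GENCODE exons were not printed, except in stretches of 30 bases around a match. Of 29 NF-kB genes listed, 28 were in the table. The alternatives were edgeR 4.0.16, TMM and total-count scaling, a low-count filter (10 counts in 3 libraries), all 12 SW1783 libraries of batch B, mitochondrial genes left out, equal depth, a test against a 1.5-fold change, no fold threshold, a replicate block, and each library left out.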

Additional observations from a re-analysis of the deposited data

Results flagged for a closer look

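The dose step differed between SW1783 and HT29 for 13 genes described here, by the interaction term of DESeq2 over 12 libraries. The first 10 are the 5 largest differences of each sign among DEGs of SW1783 with a mean of 100 or more normalized counts over the 12 libraries of both lines, and MT-RNR1, MT-RNR2 and CHAC1 were chosen after their values were seen. Values are log2 differences, SW1783 minus HT29, with their SE.

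GDF15 differed by 2.82 ± 0.08 (adjusted p = 2.92e-251), NGFR by 2.77 ± 0.93 (adjusted p = 0.0244), KCP by 2.59 ± 0.38 (adjusted p = 7.62e-10), ENSG00000278266 by 2.52 ± 0.23 (adjusted p = 1.61e-25) and CXCL8 by 2.48 ± 0.35 (adjusted p = 1.11e-10). CXCL8 rose in HT29 too, by 1.00 ± 0.25. NGFR had 0 to 5 counts and KCP 11 to 27 counts in the HT29 libraries, so their steps there are poorly measured. Without replicate 2 of the HT29 high dose, the 5 differences were 2.81, 2.76, 2.55, 2.41 and 2.89.

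In the other direction, LYPD1 differed by −3.92 ± 0.95 (adjusted p = 0.000694), ENSG00000263424 by −3.78 ± 0.68 (adjusted p = 8.69e-07), LINC01106 by −2.74 ± 0.58 (adjusted p = 5.55e-05) and ADRA2A by −2.51 ± 0.68 (adjusted p = 0.00299). LYPD1 had 0 to 9 counts in the HT29 libraries and ENSG00000263424 0 to 16. LINC01106 and ADRA2A were low in SW1783, with means of 2.67 and 2 normalized counts at the high dose. Without replicate 2 of the HT29 high dose these 4 differences were −4.27, −3.71, −2.87 and −2.67. PLXNA4 differed by −4.30 ± 1.39 (adjusted p = 0.0182) on 0 to 4 counts in HT29, and without that replicate by −1.22 (adjusted p = 0.715), so its call rested on 1 library.

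MT-RNR1, MT-RNR2 and CHAC1 differed by −3.44 ± 0.10 (adjusted p = 5.14e-281), −2.99 ± 0.10 (adjusted p = 1.43e-186) and −2.38 ± 0.17 (adjusted p = 7.93e-43), and by −3.42, −2.96 and −2.46 without replicate 2 of the HT29 high dose.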

How the results depend on the processing

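The 1561 DEGs became 6152 without the fold threshold and 438 (238 higher and 200 lower) when the test itself was set against a 1.5-fold change, which also took the DEGs among list members from 167 to 104. All 24 of the largest changes were DEGs in every alternative. Of 3088 checks of 206 named DEGs, 2937 gave the same call, 151 lost it and 0 changed sign. Outside the test against 1.5-fold 19 genes lost a call. With a library left out the counts were 1305 to 1464 in all, 650 to 708 higher, 655 to 756 lower and 159 to 167 among list members, and 24 of the 24 largest changes stayed. edgeR gave 1975 DEGs. The interaction gave 1070 genes, 2330 without the fold threshold, and, without replicate 2 of the HT29 high dose, 3841 at that looser rule. With a library left out it gave 873 to 1256 genes, 449 to 624 more positive and 424 to 632 more negative.

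Same-numbered libraries of both doses had correlations of their deviations of 0.065, 0.098 and 0.192 over 11220 genes, beside −0.192 to 0.11 for other pairs. Replicates 1 and 3 of the high dose were closest to their own number. Replicate 2 was closest to replicate 1 of the medium dose, at 0.11 against 0.098. These values cannot decide whether the numbers were pairs, and the main fit did not take them as such. The replicate block gave 1228 DEGs (624 higher and 604 lower), and for the interaction 761 genes, with 335 in place of 528 more negative. The mitochondrial rRNA difference of −1.899 percentage points of all counts was −8.961 as a share of mitochondrial counts and −0.156 for MT-RNR1 alone, and −1.978 to −1.788 with a library left out. The causes of these shifts were not tested. Thinned to equal depth, the libraries gave 1502 DEGs.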
